A study of Mus musculus with 9 samples.

Results

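Beige adipocytes grown from inguinal white fat (iWAT) of mice held 14747 Ets1 sites that lay away from promoters, in chromatin listed as open in fat, and that carried no Ets1 peak in the adipocytes of cold-stressed mice. These distal beige Ets1 sites were 48.3% (95% Wilson interval 47.7 to 48.8) of the 30553 beige Ets1 peaks, and the 9 peak lists of the study held 454996 peaks in all. A site was counted when its peak was farther than 1 kb from every transcription start site (TSS) of a protein-coding gene, overlapped no Ets1 peak of cold-stressed adipocytes and overlapped an ATAC peak of Flox adipocytes. The sites were thus chosen by 3 measured lists, so the presence of a beige peak, the absence of a cold-stress peak and openness in Flox are how they were defined and not results. Of the beige peaks, 19485 were distal, 1047 of these (5.37%) overlapped a cold-stress Ets1 peak, and 80.0% of the other 18438 overlapped a Flox ATAC peak. Just beyond the 1 kb limit lay a site near Cdh6 at 1002 bp (−log10 q 5.13), and just within it a peak near Tns1 at 999 bp (−log10 q 5.32). The −log10 q is the peak caller's measure of how far a peak stands above its local background, and it was compared within a list only. The weakest site, near Fev, had a −log10 q of 1.30.

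Ets1 was profiled by CUT&Tag, which brings a transposase to antibody-bound sites so that the DNA there is tagged, and open chromatin by ATAC, in which a free transposase tags accessible DNA. The beige library came from wild type C57 cells: the stromal vascular fraction (SVF) of male mice 3 to 4 weeks old, cultured and examined after 6 days of beige differentiation. Insulin, triiodothyronine (T3) and rosiglitazone were given throughout, and dexamethasone and isobutyl methylxanthine only until the first change of medium. The other libraries were mature iWAT adipocytes of male mice 8 to 10 weeks old, the fraction that floats after collagenase digestion. Ets1 was profiled in wild type C57 adipocytes at room temperature (RT) and after 7 days of cold stress (CS). H3K27ac, a histone mark of active promoters and enhancers, was profiled by CUT&Tag in Flox (Ets1 f/f), EAKO (Ets1 f/f with adipoq-cre), EC+/+ (Ets1 ki/ki without Cre) and EA+/+ (Ets1 ki/ki with adipoq-cre) adipocytes, and ATAC was run on Flox and EAKO. Flox and EAKO mice both carried the floxed Ets1 alleles, and EC+/+ and EA+/+ mice both carried the Cre-dependent Ets1 transgene, so the members of each pair differ in the Cre, which acts in cells that use the adiponectin promoter and leaves other cells of a sample unchanged. Each group was 1 library. No difference between groups was tested, the spread between animals or cultures is unknown, and the beige and CS libraries differ in animal age, culture and cold at once, which cannot be told apart.

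Ets1 is the founding member of the ETS family, whose factors read DNA with the core GGAA. AP-1 is a dimer of Jun and Fos family proteins that reads TGACTCA, is induced by growth factors and serum, and is a common occupant of enhancers in fibroblast-like cells, where ETS and AP-1 sites can lie side by side. Adipose progenitors express platelet-derived growth factor receptors and collagens and lose this programme as PPARγ and C/EBP factors drive differentiation into adipocytes.

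The windows below show the strongest sites that held letters of these factors. Each is 101 bases around the Ets1 summit, on the plus strand of mm10, copied from the RefSeq GRCm38 chromosome, with the matching letters on either strand in capitals. The window at Prss56 was the strongest site both for AP-1 letters (TGACTCA) and for ETS letters (CNGGAAGT, N being any base). Its capitals mark ETS letters that run into AP-1 letters, followed by a further AP-1 match in the same window:
Prss56, AP-1 and ETS, chr1:87181007-87181107: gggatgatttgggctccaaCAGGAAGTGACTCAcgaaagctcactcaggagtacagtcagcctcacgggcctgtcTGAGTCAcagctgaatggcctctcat
Fam129b, C/EBP, chr2:32882540-32882640: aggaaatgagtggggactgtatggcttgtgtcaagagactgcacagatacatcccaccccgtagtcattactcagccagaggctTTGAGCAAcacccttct
Hhipl1, glucocorticoid receptor, chr12:108309669-108309769: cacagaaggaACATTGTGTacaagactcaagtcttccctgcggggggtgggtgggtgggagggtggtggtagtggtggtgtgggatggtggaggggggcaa
Fstl1, AP-1 near a progenitor gene, chr16:37789199-37789299: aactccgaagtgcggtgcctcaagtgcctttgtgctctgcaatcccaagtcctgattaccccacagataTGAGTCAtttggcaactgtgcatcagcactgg
Pparg, AP-1 near an adipocyte gene, chr6:115463188-115463288: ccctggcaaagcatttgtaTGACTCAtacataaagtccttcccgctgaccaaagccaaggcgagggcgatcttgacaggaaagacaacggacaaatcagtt

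The Prss56 site (chr1:87180774-87181283) lay in intergenic DNA 2.26 kb from the TSS of Prss56, a serine protease gene, and had a −log10 q of 163. The Fam129b site (154) and the Hhipl1 site (135) were intronic, 6.48 and 3.17 kb from a TSS of their genes. Fstl1 encodes the secreted glycoprotein follistatin-like 1, and its AP-1 site was intronic at a −log10 q of 21.3. The window at Pparg, the master regulator of fat cell differentiation, covered coding sequence of the gene 23.3 kb from its nearest TSS, at 4.47. These 5 sites all met an H3K27ac peak of Flox and of EAKO and an ATAC peak of EAKO, and none met an H3K27ac peak of EC+/+ or EA+/+ or an RT Ets1 peak.

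The 14747 sites were short. Their median length was 247 bp (quartiles 187 and 349), they covered 4.23 Mb, and their median −log10 q was 6.14 (quartiles 3.76 and 10.7) at a median fold enrichment of 6.01. The 785 distal open sites that beige cells shared with CS were longer and stronger, at 382 bp and 13.6, and the 11068 promoter peaks of beige cells had 365 bp and 11.3. The 3691 distal beige peaks without CS and outside Flox ATAC had 174 bp and 2.62. The GC content around the summits was 51.1% ± 7.21 (SD over sites) in the distal beige Ets1 sites and 64.2% in promoter peaks. It was 48.2% in the 54969 distal Flox ATAC peaks that overlapped no Ets1 peak of any list, which serve below as the comparison of distal open sites without Ets1. Summits fell in introns at 46.0% of the sites, between genes at 50.6% and in exons at 3.34%, close to the 46.7%, 49.9% and 3.41% of the open sites without Ets1. The median distance to a protein-coding TSS was 19.9 kb (quartiles 7.59 and 52.0), and 13.0% of the sites were over 100 kb away. Within 150 bp of the summits, RT Ets1 peaks met 23 sites, or 0.156%. The RT list was small, 4056 peaks over 1.05 Mb, against 14858 over 4.69 Mb in the CS list. The sites were also chosen to lack CS peaks, so this low share is not read as a result.

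AP-1 letters were the most frequent of 15 letter patterns at these summits. TGACTCA lay within 50 bp of 2555 summits, 17.3% (16.7 to 17.9), against 1.84% in windows moved by 1 kb and 3.14% for the letters read backwards. At open sites without Ets1 the share was 16.4%, so on this count the distal beige Ets1 sites lay near the share of open chromatin at large. It was lower in the other classes of beige Ets1 peak: 8.15% of distal sites shared with CS, 4.82% of distal sites without CS outside Flox ATAC and 3.07% of promoter peaks. The AP-1 letters occurred once in 2379 windows and in 2 copies in 164, with at most 5 copies. Among TGANTCA matches, 2750 had C or G in the centre and 619 had A or T.

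The AP-1 share depended on which summit the window was centred on. The Ets1 summit lay within 50 bp of the summit of a Flox ATAC peak it overlapped at 36.6% of the sites (quartiles of the distance 32.0 and 153 bp), while the open sites without Ets1 could only be centred on their ATAC summit. When the 14092 Flox ATAC peaks that held the sites were centred on the ATAC summit as well, an alternative chosen after seeing the data, 22.3% (21.6 to 23.0) held AP-1 letters against 16.4% (16.1 to 16.8). The 14092 peaks, unlike the open sites without Ets1, were not required to be distal or free of RT and CS Ets1 peaks. The same centring gave ETS letters 2.83% against 2.06%, C/EBP letters (TTGCNNAA) 6.61% against 6.09% and CTCF letters (CNAGGNGGC) 2.29% against 4.61%. The ATAC peaks that held the sites were also stronger, with a median −log10 q of 48.0 over the sites against 12.9 at open sites without Ets1. When the open sites without Ets1 were divided into 5 equal classes by this value, 70.1% of the sites fell in the range of the strongest class, above 29.7. In that class and with ATAC centring, AP-1 letters lay at 24.0% of the peaks with sites and 19.8% of those without Ets1, and in the weakest class, below 5.76, at 9.60% and 10.8%. Centred on the Ets1 summit instead, the sites held AP-1 letters at 18.8% in the strongest class and 10.1% in the weakest. In each of the 5 classes that share was below the share at open sites without Ets1. The strongest class has no upper limit, so strength was not matched within it. The median of 48.0 over the sites lay above the 90th percentile of the open sites without Ets1, 42.9.

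ETS letters themselves were infrequent. CNGGAAGT lay within 50 bp of 448 of the 14747 Ets1 summits, 3.04% (2.77 to 3.33), against 2.06% at open sites without Ets1, 1.39% in moved windows and 1.51% read backwards. The promoter peaks of beige cells held them at 5.27% and the distal sites shared with CS at 3.82%. The shorter core GGAAGT, which is part of CNGGAAGT, lay at 8.41% of the sites and 7.01% of the open sites without Ets1. The form CCGGAAGT lay at 0.244% and 0.115%. ETS matches were fewer at the summit base than beside it. Within 10 bp of the summit there were 0.149 matches per 100 sites and 10 bp, and from 10 to 40 bp 0.400, against 0.212 beyond 150 bp. Promoter peaks had the same shape at a higher level, with 0.257 within 10 bp and 0.681 from 10 to 40 bp, while open sites without Ets1 had 0.199 and 0.234. AP-1 matches had no such gap, with 1.77 and 2.07 per 100 sites and 10 bp in the 2 zones and 0.473 beyond 150 bp. A lower count within 10 bp was not particular to ETS letters. C/EBP letters had 0.417 and 0.582 in the 2 zones, and TEAD letters (ACATTCC) 0.264 and 0.416. At open sites without Ets1, C/EBP letters had 0.351 and 0.763. Glucocorticoid receptor letters went the other way at the sites, with 0.675 and 0.437, as did EBF letters (CCCNNGGGA), with 0.553 and 0.434. AP-1 and ETS letters shared a window at 88 sites (0.597%), where the median gap between them was 20.5 bp and the letters overlapped at 10 sites, the Prss56 site among them. ETS letters lay at 3.44% (2.80 to 4.22) of the sites with AP-1 letters and at 2.95% (2.67 to 3.27) of those without, intervals that overlap.

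**Figure D1:**
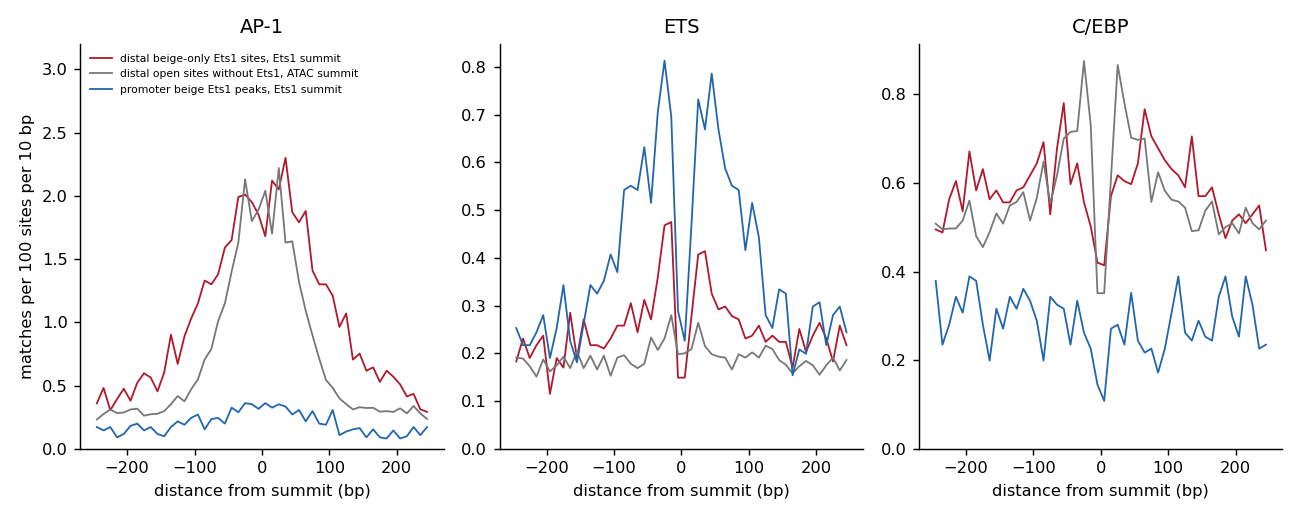
Position of AP-1, ETS and C/EBP letters around summits. The horizontal axis is the distance from the summit in bp and the vertical axis the number of matches per 100 sites in bins of 10 bp, for the 14747 distal beige Ets1 sites (red), 11068 promoter peaks of beige cells (blue) and 54969 distal open sites without Ets1 (grey, ATAC summit). AP-1 matches piled up around distal summits of both kinds, and ETS matches stood on both sides of the Ets1 summits, higher at promoters.

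The remaining patterns were read on both strands in the same windows. C/EBP letters lay at 4.95% of the sites, 6.09% of the open sites without Ets1 and 3.86% of moved windows, and their count dipped at the summit to 0.417 matches per 100 sites and 10 bp from 0.548 beyond 150 bp. EBF letters (CCCNNGGGA), read by the early B-cell factors that take part in adipocyte commitment, lay at 3.59% (3.31 to 3.91) against 2.31%, and PPAR letters (GGNCANAGG) at 4.01% (3.71 to 4.34) against 2.56%. Centred on the ATAC summit like the open sites without Ets1, the shares were 3.64% for EBF and 3.26% for PPAR letters, still above them. In moved windows EBF letters lay at 1.37% and PPAR letters at 2.84%, and read backwards at 1.43% and 2.19%. PPAR letters thus stood closer to their moved windows than EBF letters did, at a ratio of 1.41 against 2.63. The ratio for glucocorticoid receptor letters was 1.39. Glucocorticoid receptor letters (ACANNNTGT) lay at 4.48% (4.15 to 4.82) against 3.17%, but read backwards they lay at 3.34%, in moved windows at 3.21% and with ATAC centring at 3.53% (3.23 to 3.84). TEAD letters (ACATTCC), read by the partners of YAP, lay at 3.55% against 3.93%, and RUNX letters (TGTGGTT) at 3.93% against 4.76%. With ATAC centring these became 4.20% (3.88 to 4.54) for TEAD and 4.75% for RUNX letters, and both intervals held the share of the open sites without Ets1. CTCF letters were less frequent than at open sites without Ets1, 1.80% (1.59 to 2.02) against 4.61%. SP/KLF letters (GGGCGGG) lay at 2.75% against 1.39%, far below the 26.1% of promoter peaks. E-box letters (CAGCTG) lay at 8.06% against 8.10%, and at 8.81% (8.36 to 9.29) with ATAC centring. CRE (TGACGTCA), NF1 and STAT (TTCCNGGAA) letters each lay at under 1% of the sites. A repeat of CA in 6 units lay at 1.84% of the sites against 0.733%, but at 0.710% with ATAC centring and at 2.39% of moved windows. It lay at 11.6% of the distal beige peaks without CS outside Flox ATAC. At least 1 of the 14 patterns other than the CA repeat was present at 46.6% (45.8 to 47.4) of the sites.

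**Figure D2:**
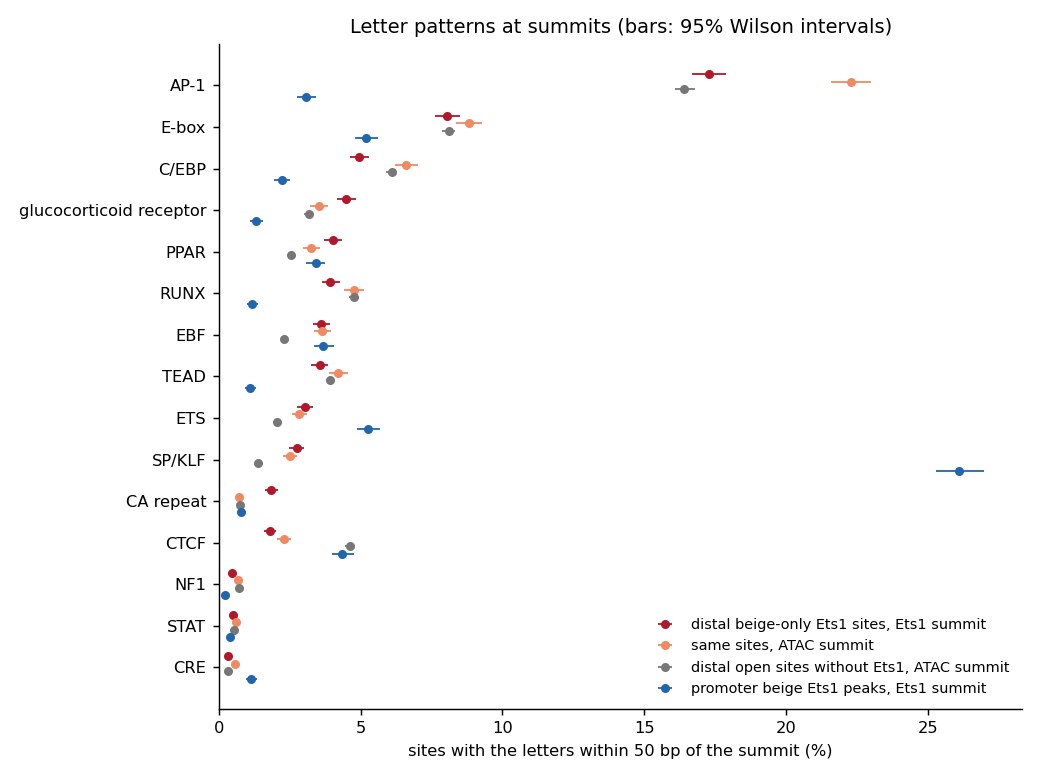
Share of sites with each of 15 letter patterns within 50 bp of the summit (horizontal axis, percent), with 95% Wilson intervals as bars. Red points are the 14747 distal beige Ets1 sites at the Ets1 summit, orange points the 14092 Flox ATAC peaks that held them at the ATAC summit, grey points the 54969 distal open sites without Ets1 and blue points the 11068 promoter peaks. AP-1 letters led at distal sites, from 16.4% to 22.3%, and SP/KLF letters at promoter peaks, 26.1%.

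Stronger Ets1 sites held AP-1 and ETS letters more often. From the weakest to the strongest of 4 equal classes of −log10 q, the share with AP-1 letters was 11.0%, 16.8%, 20.1% and 21.3%, and the share with ETS letters 2.40%, 2.43%, 2.85% and 4.47%. C/EBP letters showed no such order, with 4.88%, 4.94%, 5.42% and 4.56%. The median −log10 q was 7.31 at sites with AP-1 letters and 5.84 without, and 7.40 at sites with ETS letters and 6.08 without. By distance to a TSS, AP-1 letters lay at 15.2% of the sites under 5 kb away and at 19.5% of those over 100 kb away. These strengths are those of the library that chose the sites and are given as a description. A rise of AP-1 letters with peak strength was not particular to Ets1 peaks. At open sites without Ets1 they lay at 10.8% in the weakest class of ATAC strength and 19.8% in the strongest. ETS letters there lay at 2.16% and 1.96%.

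H3K27ac covered most of the sites in Flox and EAKO adipocytes. Within 150 bp of the summit an H3K27ac peak of Flox was met by 11966 sites, 81.1% (80.5 to 81.8), against 34.8% of the open sites without Ets1, and one of EAKO by 78.3% (77.7 to 79.0) against 31.8%. The shares were far lower in the other pair of mice, 9.36% (8.90 to 9.84) against 3.33% in EC+/+ and 8.44% (8.00 to 8.90) against 3.05% in EA+/+. Those lists were also smaller, with 33713 and 38484 peaks over 11.5 and 12.6 Mb, against 86834 and 74682 peaks over 41.2 and 40.1 Mb in Flox and EAKO. The pairs lay closer together at the promoter peaks of beige cells. There the shares were 90.8% in Flox, 85.2% in EAKO, 59.0% in EC+/+ and 54.0% in EA+/+. Distal sites shared with CS met an H3K27ac peak at 95.3% in Flox and 62.9% in EC+/+, and the distal beige peaks without CS outside Flox ATAC at 18.7% in Flox. Both Flox and EAKO peaks were present at 73.6% of the sites, a Flox peak without an EAKO peak at 1111 sites (7.53%), the reverse at 697 (4.73%) and neither at 14.1%. For EC+/+ and EA+/+ the corresponding shares were 3.81%, 5.55% and 4.63%. A peak in each of the 4 H3K27ac lists was present at 531 sites (3.60%), and 2022 (13.7%) met none. The loss or gain of a peak between 2 lists of 1 library each was not tested.

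Since the Flox ATAC peaks at the sites were stronger than those at open sites without Ets1, the H3K27ac shares were also read within the 5 classes of ATAC strength. In the strongest class 89.5% of 10332 sites and 61.5% of 11019 open sites without Ets1 met a Flox H3K27ac peak, and in the weakest 41.6% of 375 and 18.5% of 10994. EAKO H3K27ac gave 87.5% and 57.5% in the strongest class and 36.0% and 16.5% in the weakest. The share at the sites was higher in each of the 5 classes for both lists and for EC+/+. The strongest class has no upper limit, so ATAC strength was not matched within it. Where met, the Flox H3K27ac peak had a median −log10 q of 13.9 at the sites and 6.65 at open sites without Ets1, against 5.85 over that whole list. Sites without a Flox H3K27ac peak were weaker in the beige Ets1 list, with a median −log10 q of 3.98 against 6.70. Sites with AP-1 letters met Flox H3K27ac at 85.2% and EC+/+ H3K27ac at 7.12%, and sites without them at 80.3% and 9.83%. EAKO ATAC peaks met 95.9% (95.6 to 96.2) of the sites and 77.0% of the open sites without Ets1. In the strongest class both stood at 99.7%, and in the weakest at 46.4% and 38.1%.

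**Figure D3:**
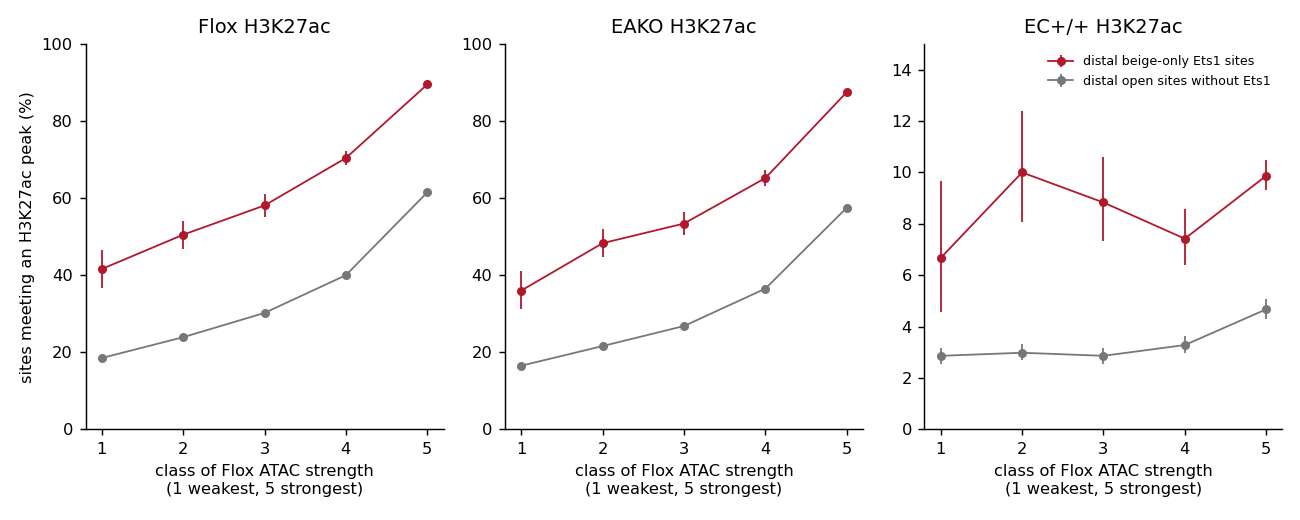
Share of sites that met an H3K27ac peak of Flox, EAKO or EC+/+ adipocytes (vertical axes, percent, the last with its own scale) by class of Flox ATAC strength (horizontal axis, 1 weakest to 5 strongest), with 95% Wilson intervals as bars. The distal beige Ets1 sites (red) lay above the distal open sites without Ets1 (grey) in each class, 89.5% against 61.5% for Flox in the strongest. Class 5 has no upper limit, so strength was not matched within it.

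Each site was assigned to the protein-coding gene with the nearest TSS within 100 kb, which 87.0% of the sites had. By this rule 6166 of 21911 protein-coding genes (28.1%) had at least 1 site, 540 had 5 or more and 49 had 10 or more. Counts were not scaled by gene length or spacing, and each stands beside the number of the gene's distal open sites without Ets1, and 22.2% of all distal open sites of the 2 kinds were distal beige Ets1 sites. Zmiz1, a coactivator of the PIAS-like family, had the most, 21 sites beside 16 open sites without Ets1, with −log10 q from 2.77 to 24.1, and 18 of them met Flox H3K27ac and 6 EC+/+ H3K27ac. Tgfbr3, the coreceptor betaglycan of TGF-β, followed with 17 sites from 2.14 to 18.2, 15 of them with Flox H3K27ac. Med13l, Sash1, Tns1 and Gse1 had 15 each, and the strongest site of Med13l, a Mediator kinase module subunit, had a −log10 q of 128 and lay 95.2 kb away. Irf2bp2 and Thbs2 had 14 each, and Dlc1, Frmd4a, Smad7, Ece1, Ank3 and Bach2 had 13. Sgk1, a serum and glucocorticoid induced kinase, had 12 sites beside 7 open sites without Ets1, and 6 of the 12 held AP-1 letters, more than at any other of these 15 genes. Of the 15, Tgfbr3 and Smad7 belong to TGF-β signalling and Thbs2 to the matrix. Neighbouring summits at most 12.5 kb apart formed 692 runs of 3 or more, with 16.7% of the sites. The largest run held 11 sites over 48.0 kb at Zmiz1 (chr14:25457554-25505544). Runs of 9 had Fosb, Ercc1 and Rtn2, or Tarbp1 and Irf2bp2, or Smad6 and Lctl as nearest genes. The run of Tarbp1 and Irf2bp2 (chr8:126497692-126551285) did not reach the Irf2bp2 gene itself (126588296-126593986).

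The strongest single sites lay at Setd1b, a histone H3 lysine 4 methyltransferase (chr5:123138135-123138758, −log10 q 246), and BC030867 (chr11:102244969-102245512, 236). Flna, the actin crosslinker filamin A, had a site of 173 in an intron (chrX:74244559-74245029), where the Flox ATAC peak was weak in its list, 7.34. Tex44 (155), Sparc, a matrix glycoprotein of stromal cells (143), Ago2 (132) and Mrpl33 (130) completed the 10 with the Prss56, Fam129b and Hhipl1 sites. Each of the 10 met H3K27ac peaks of Flox and EAKO, and those at Setd1b, Ago2 and Mrpl33 met EC+/+ peaks as well. Whether regions of excess signal were removed from the lists is not given in the sources used here, so the strongest values may include some.

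Genes of adipose progenitors had sites more often than protein-coding genes at large. Of the 30 progenitor genes, 22 had at least 1 site, 73.3% (55.6 to 85.8) against 28.1%. The 28.1% counts all genes, whatever open chromatin lies near them, and 25 of the 30 also had distal open sites without Ets1. Their 75 sites made up 28.3% of their distal open sites, against 22.2% over all genes, a smaller difference. Col1a1, the main fibrillar collagen chain, had 9, at −log10 q 3.14 to 35.4, the strongest 63.1 kb away in intergenic DNA (chr11:94872905-94873294), and 8 of them met Flox H3K27ac. Creb5, a bZIP factor, had 8 from 3.14 to 42.5, all in introns and all with Flox H3K27ac peaks. Cd44, the hyaluronan receptor, and Fstl1 had 7 each. The 7 sites of Fstl1 had −log10 q of 6.05, 10.5, 20.6, 26.7, 21.3, 8.90 and 22.9 in genome order, and 3 of them held AP-1 letters. Pdgfra, the receptor that marks adipose progenitors, had 2 weak sites, 2.56 and 2.62, at 46.3 and 95.6 kb, the nearer of them with AP-1 and C/EBP letters. Dpp4, a marker of early progenitors, had 3, and Pi16, of the same cells, had 0. Among 20 progenitor transcription factors 16 had a site, 80.0% (58.4 to 91.9). Tcf7l2, a Wnt effector, had 9, Twist2 and Meox1 had 6 each, and Klf4 had 5. The strongest site of Twist2 stood at 41.3 in intergenic DNA 56.7 kb away.

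Adipocyte genes had sites at a share closer to that of all genes. Of 38 adipocyte genes 13 had a site, 34.2% (21.2 to 50.1). Their 17 sites made up 16.2% of their distal open sites, against 22.2% over all genes. When a site counted for every TSS within 50 kb, 28 of the 38 and 24 of the 30 progenitor genes had one, against 48.5% of all genes. The lists were closer to each other by this count than by the nearest-gene rule. Lpin1, a phosphatidate phosphatase of fat synthesis, had 4 sites of 6.78 to 11.4, each with Flox and EAKO H3K27ac. Pparg had 2, at 4.14 (chr6:115349454-115349935) and at the coding site shown above, 4.47, beside 7 open sites without Ets1. The first held PPAR and glucocorticoid receptor letters, and met a Flox but no EAKO H3K27ac peak. Lpl, lipoprotein lipase, had 1 of 14.9 at 63.4 kb. Adipoq, the adiponectin gene, had 1 of 7.50 at 13.3 kb (chr16:23159883-23160122), with a Flox H3K27ac peak of 4.65 and no EAKO peak, although an EAKO ATAC peak of 56.3 was present. Fabp4 had 0. Of the 17 sites of adipocyte genes, 0 met an EC+/+ H3K27ac peak, where the share over all 14747 sites was 9.36%. So few sites do not set these genes apart.

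Of 33 thermogenic genes 15 had a site, 45.5% (29.8 to 62.0), and 27.9% of their distal open sites were distal beige Ets1 sites. Ucp1, the uncoupling protein of heat production, had 0 beside 1 open site without Ets1, and had no beige Ets1 peak at its promoter either. Zfp516 and Ebf2, regulators of the brown fat programme, had 5 each, and Alpl and Adrb1, the β1 adrenergic receptor, 4 each. The 5 sites of Ebf2 were weak, 1.68 to 7.09, and 2 met a Flox H3K27ac peak. Ppara had the strongest site of the list, 51.2 at 47.9 kb.

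Genes of AP-1 and ETS factors had sites themselves. Of 19 AP-1 genes 11 had a site, 57.9% (36.3 to 76.9) against 28.1% of all genes, and 30.1% of their distal open sites were distal beige Ets1 sites. Fos had 6, at 4.56, 28.5, 104, 35.3, 3.97 and 22.4 in genome order, and the strongest lay 11.2 kb away in intergenic DNA (chr12:85485776-85486462). Fosb had 6 of 4.71 to 21.9, 3 of them with Flox H3K27ac, Jdp2 had 3 and Fosl2 2. Of 20 ETS genes 10 had a site, 50.0% (29.9 to 70.1), but 19.7% of their distal open sites were distal beige Ets1 sites, below the 22.2% over all genes. Ets1 itself had 9, the most of that list, with −log10 q of 5.16, 9.66, 5.27, 2.85, 3.60, 19.8, 6.54, 3.03 and 6.70 in genome order. The strongest lay in an intron 23.7 kb from a TSS (chr9:32671969-32672385) and met an H3K27ac peak in all 4 lists, at −log10 q 29.8 in Flox, 22.3 in EAKO, 4.72 in EC+/+ and 2.35 in EA+/+. Of the 9, 7 met Flox H3K27ac, 8 EAKO H3K27ac and 9 EAKO ATAC, and 1 held AP-1 letters and 0 ETS letters. Over all 14747 sites the corresponding shares were 81.1%, 78.3%, 95.9%, 17.3% and 3.04%, so these counts do not set the gene apart. The knock-out allele removes part of this gene, and whether any of the 9 lies in the part removed was not examined. Etv4 and Etv6 had 4 each and Elf2 3.

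Matrix genes had sites most often of the 20 lists, 30 of 32 (93.8%, 79.9 to 98.3), with 140 sites, 33.7% of their distal open sites. Thbs2, which encodes thrombospondin 2, had 14, Col5a1 12, and Col4a1 and Col4a2, the paired basement membrane collagens, 9 and 8. The strongest of Col4a2 stood at 80.2 in an intron (chr8:11382509-11383002). TGF-β and BMP genes had a site at 14 of 24 (58.3%, 38.8 to 75.5), led by Tgfbr3, Smad7, and Smad3 and Smad6 with 10 each. Cytoskeleton and YAP genes had 13 of 18, with 7 at Tead1 and at Actn1 and 5 at Vcl and at Amotl2. The glucocorticoid response list had the highest share of distal open sites that were distal beige Ets1 sites, 51.6%, at 9 of 13 genes. The glucocorticoid dexamethasone was in the medium at the start of differentiation and had been withdrawn before the cells were profiled, and its part in this share was not tested. Beside Sgk1 the list was led by Fkbp5, a chaperone of the receptor, with 9 sites from 2.73 to 43.6, Dusp1 with 8 and Errfi1 with 7. The strongest site of Sgk1, 75.5 at 4.24 kb (chr10:22000349-22001168), held AP-1 letters and met none of the 4 H3K27ac lists. Core autophagy and respiratory chain genes each had a site at 9 of 30 (30.0%, 16.7 to 47.9), near the 28.1% of all genes. These counts leave out promoters. There, beige Ets1 peaks were present at 29 of 30 core autophagy and 28 of 30 respiratory chain genes, against 46.4% of all protein-coding genes. Atg7 had 11 sites and Uvrag 10. The 31 sites of the autophagy genes made up 25.4% of their distal open sites. The 13 sites of the respiratory chain genes made up 31.0%, against 22.2% over all genes.

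Markers of other cells of the fat pad were counted in the same way. Macrophage genes had a site at 3 of 20 and at 6.38% of their distal open sites, lymphocyte genes at 5 of 19 and 15.2%, epithelial genes at 3 of 10 and 11.5%, and skeletal muscle genes at 2 of 10 and 15.4%. Endothelial genes had 11 of 20 and 24.2%, led by Flt1 with 5, Schwann cell genes 5 of 10 and 23.8%, and mesothelial genes 3 of 10 and 24.0%. Mural cell genes, which mark pericytes and smooth muscle, had 7 of 10 and 47.2%, led by Cspg4 with 6 sites and Notch3 with 4. Peak lists carry no expression values, so the label beige adipocyte could not be checked against RNA, and the part of undifferentiated stromal or mural cells of the culture in these sites was not tested. At the promoters, beige Ets1 peaks were present at 18 of 30 progenitor, 26 of 38 adipocyte and 13 of 33 thermogenic genes, against 46.4% of all protein-coding genes. Pparg and Pdgfra had such a peak, and Adipoq and Ucp1 had none.

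**Figure D4:**
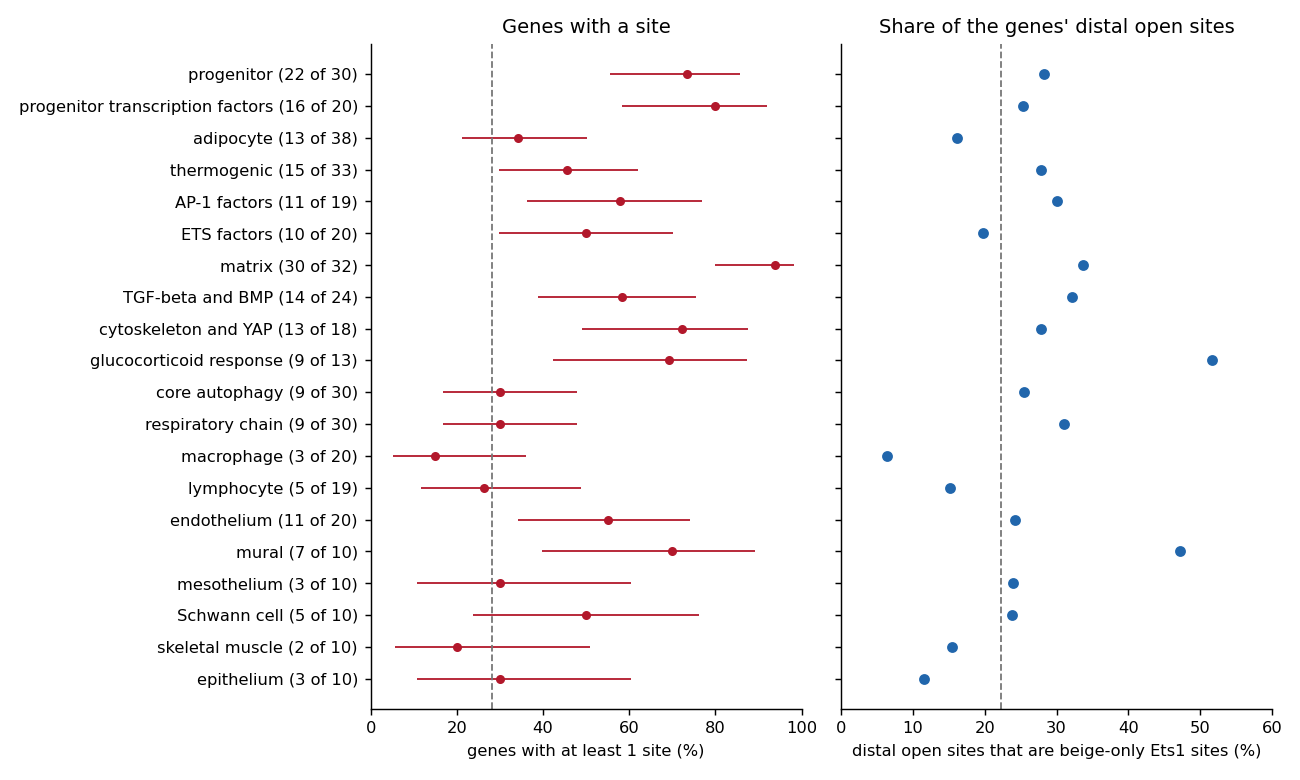
For 20 gene lists, the share of genes with at least 1 distal beige Ets1 site (left, percent, with 95% Wilson intervals; the dashed line is 28.1%, the share of all protein-coding genes) and the share of the genes' distal open sites that were distal beige Ets1 sites (right, percent; the dashed line is 22.2%, the share over all genes). Matrix genes lay highest on the left at 93.8% and glucocorticoid response genes on the right at 51.6%, and macrophage genes lowest on both.

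**Figure D5:**
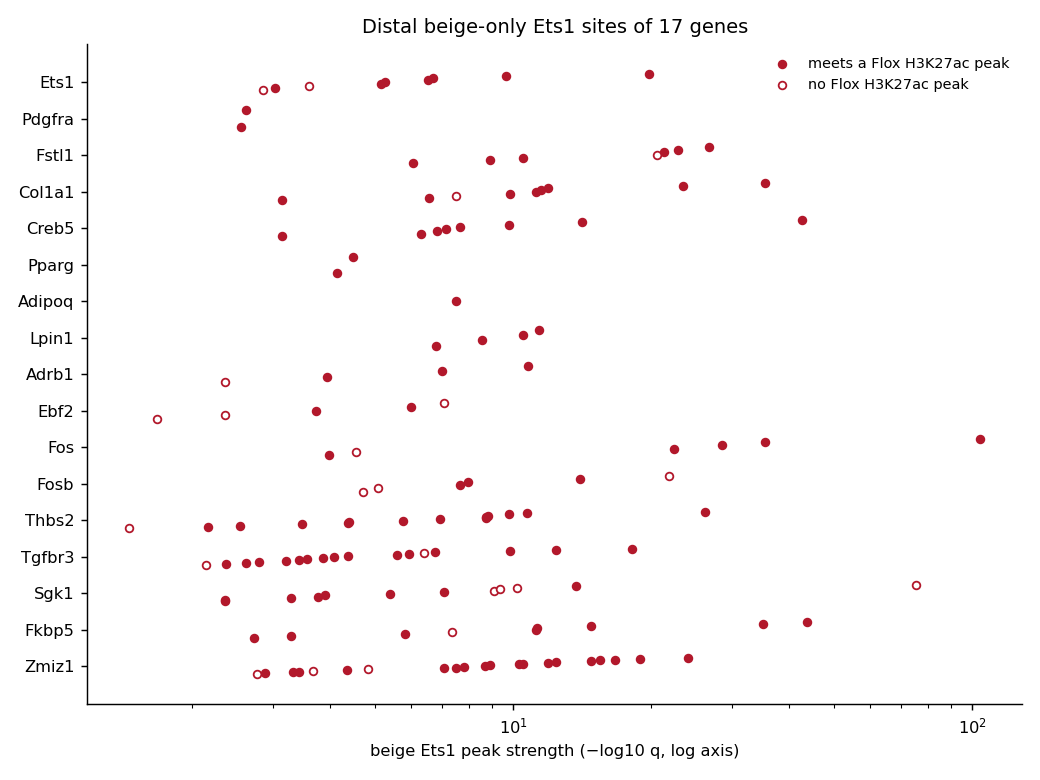
Strength of each distal beige Ets1 site of 17 genes (horizontal axis, −log10 q of the beige Ets1 peak, log axis), filled where the site met a Flox H3K27ac peak and open where it met none. The sites of Pdgfra, Pparg and Adipoq were few and below 10, while Fos reached 104 and Sgk1 75.5, the latter without a Flox H3K27ac peak.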

How the data were processed

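Per the study's methods, the authors trimmed reads with trimmomatic, aligned pairs with BWA to mm10 and called peaks with MACS2 in each library at a q-value under 0.05. The submitters' notes also name SAMtools and deepTools. Control libraries and removal of regions with excess signal are not given in the sources used here. The deposited lists hold, for every peak, coordinates, summit offset, score, fold enrichment (a ratio), and −log10 of its p-value and q-value, as the authors' caller wrote them. Read depth cannot be read from these lists.

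Here, peaks were compared by overlaps of at least 1 bp in Python 3 with numpy and pandas, with TSS from GENCODE M21. Letters were sought on both strands within 50 bp of summits in GRCm38. H3K27ac and ATAC peaks counted within 150 bp. Code was tested on simulated data. Intervals are 95% Wilson intervals and cover counting error only. The sites, gene lists and letters were chosen with earlier results of these data known. Genes named were Ets1, Adipoq, Pparg, Pdgfra, Ucp1, the 15 with most sites, up to 4 per list and those nearest the 10 strongest sites. Dpp4, Pi16, Fabp4 and Ppara were named after their values were seen. Of the lists, Ctgf, Cyr61 and Trbc2 matched no protein-coding name in the annotation. Alternatives were other window widths, thresholds, letters and gene rules.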

Additional observations from a re-analysis of the deposited data

How the results depend on the processing

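No paired analysis was possible because each group was 1 library, so none could be left out either. The number of distal beige Ets1 sites stayed between 12080 and 14602 under its 6 alternatives, and in all 22 of 40 alternatives moved a share by less than its interval or a count by less than 1.5 times. Windows of 25 and 100 bp on each side gave AP-1 letters at 8.45% and 28.9%, ETS letters at 1.17% and 5.60%, and C/EBP letters at 2.13% and 11.1%, as shorter or longer windows must. Beige peaks with a q-value under 0.001 gave AP-1 letters at 18.8% and Flox H3K27ac at 84.6%. The letters TGANTCA gave 20.9% (20.6% at open sites without Ets1), CCGGAAGT 0.244% and GGAAGT 8.41%. Centring on the Flox ATAC summit gave AP-1 letters at 22.3% and C/EBP letters at 6.61%. Flox H3K27ac was met at 77.6% of summit bases, at 79.1% with H3K27ac peaks at a q-value under 0.001, and at 89.5% in the strongest ATAC class, and EAKO ATAC at 94.3% of summit bases. Counting every TSS within 50 kb gave 28 adipocyte genes in place of 13. The centring on ATAC summits and the ATAC class were added after seeing the data.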
